A study of Mus musculus with 12 samples.

Results

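The transcripts of 10 genes of the Hippo pathway were examined in rhabdoid tumors (RTs) of the mouse: the transcriptional co-activators Yap1 and Wwtr1 (Taz), their DNA-binding partners Tead1, Tead2, Tead3 and Tead4, and the target genes Ctgf, Cyr61, Amotl2 and Ankrd1. The genes were chosen by name, by their place in the pathway, and all 10 were found among the 24060 gene rows. RTs are aggressive childhood cancers that lack SMARCB1, a core subunit of the SWI/SNF chromatin remodeling complex. The 12 tumors arose spontaneously in P0-CreC;Smarcb1flox/flox mice on an FVB/N background, in which a myelin protein zero promoter drives Cre recombinase in neural crest cells and the Schwann cell lineage and both Smarcb1 copies carry loxP sites. By location, 4 tumors were retro-orbital, 3 were from the cheek, 3 from the meninges, and 1 each from the vestibular nerve and the trigeminal nerve. All 12 share the genotype, no agent was given, the ages at dissection are not given in the sources used here, and no tumor-free tissue or Smarcb1 wild-type tumor was analysed here, so every comparison was among RTs. Tumors are named by location and a number that has no order.

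In the Hippo pathway, the kinases Stk3 and Stk4 activate Lats1 and Lats2, which phosphorylate Yap and Taz and keep them out of the nucleus. Unphosphorylated Yap and Taz enter the nucleus, bind Tead factors and switch on genes such as Ctgf and Cyr61, which encode secreted matricellular proteins, while Nf2 (Merlin), a tumor suppressor of the Schwann cell lineage, acts upstream of the kinases. The pathway is regulated mainly on the proteins, so transcript levels of Yap1 and Wwtr1 do not measure their activity.

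Tead factors bind the sequence CATTCC, which reads GGAATG on the other strand. RefSeq promoter windows of 250 bases before an annotated start (GRCm38.p6) held 7 of the 10 genes, and those of Yap1, Wwtr1, Tead3, Cyr61, Amotl2 and Ankrd1 contained the sequence on either strand in at least 1 window, whereas the Tead2 window did not. Wwtr1 had more than 1 window, and so did Tead3, of which 1 window held no match. Counted by window, 8 of the 10 windows of these genes contained it, against 12.6% of all 32851 windows of that length. The Wwtr1 windows overlap and hold the same match, so it is counted more than once. The genes were also chosen by their place in the pathway, some as known targets, so these shares are not a test of enrichment. The windows of 3 target genes are shown because they hold the letters to which the pathway's DNA-binding factors attach, with the match in capitals and each sequence written 5′ to 3′ on the strand of the gene. The Amotl2 window precedes an annotated start that lies within the gene.
Cyr61 (Ccn1), chr3:145649986-145650235, minus strand: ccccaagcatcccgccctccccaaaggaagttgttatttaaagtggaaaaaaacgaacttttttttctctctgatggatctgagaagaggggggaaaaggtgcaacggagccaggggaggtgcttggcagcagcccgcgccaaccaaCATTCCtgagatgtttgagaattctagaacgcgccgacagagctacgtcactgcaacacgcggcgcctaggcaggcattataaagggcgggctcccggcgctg
Amotl2, chr9:102717554-102717803, plus strand: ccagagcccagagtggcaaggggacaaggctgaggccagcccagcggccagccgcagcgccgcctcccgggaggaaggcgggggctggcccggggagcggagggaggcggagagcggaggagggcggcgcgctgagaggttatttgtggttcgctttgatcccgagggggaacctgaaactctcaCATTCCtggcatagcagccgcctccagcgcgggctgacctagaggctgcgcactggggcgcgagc
Ankrd1, chr19:36119845-36120094, minus strand: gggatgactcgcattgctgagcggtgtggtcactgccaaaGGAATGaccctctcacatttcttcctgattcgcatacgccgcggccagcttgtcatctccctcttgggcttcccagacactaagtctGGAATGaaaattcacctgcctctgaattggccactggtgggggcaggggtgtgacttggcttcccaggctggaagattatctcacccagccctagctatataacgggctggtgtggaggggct
The first base of the match lay 103 bases before the start in Cyr61 and 65 bases before it in Amotl2. Ankrd1 had 2 matches, at 210 and 123 bases. A match of letters is a description of the sequence, and binding was not measured.

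Expression is given as RPKM, read counts divided by gene length and by the mapped reads of the tumor, so that levels of different genes can be set side by side. The gene lengths used are not given in the sources used here. An error in a length would shift that gene alike in every tumor, which tests within tumors cannot see. The fragment totals by which the values were divided, worked out from what 1 fragment is worth in RPKM, ranged from 13206168 to 57128422 per tumor, with a median of 27929720. The paper reports a narrower range of reads per sample, and this difference was not examined. Smarcb1 itself was listed at 1.70 to 6.31 RPKM, a value over the whole gene that does not by itself check the deletion. The first part of the title was shared by 3 pairs of tumors (cheek 1 and meninges 1, cheek 2 and cheek 3, retro-orbital 3 and trigeminal nerve 1). Whether a pair came from 1 animal is not stated. The tests treat the tumors as independent, and p-values measure the spread between these tumors. In these bulk samples, fewer cells of a type and less RNA per cell cannot be told apart.

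Ordered by the median over the 12 tumors, Ctgf was highest at 111 RPKM, followed by Wwtr1 (62.2), Cyr61 (41.6), Yap1 (38.9), Amotl2 (27.7), Tead3 (15.2), Tead1 (14.8), Tead2 (4.93), Ankrd1 (2.28) and Tead4 (1.42). The ranges of every pair of neighbours in this order overlapped. The genes differed in how much they varied. The standard deviation (SD) of log2(RPKM + 1) over the 12 tumors was 0.27 for Yap1, the smallest of the 10 genes, and only 13.4% of 15040 expressed genes varied less. Among the other factors it was 0.45 for Tead4, 0.51 for Wwtr1, 0.60 for Tead1, 0.80 for Tead3 and 0.87 for Tead2. Each target varied more than at least 90.7% of these genes, with SDs of 1.17 for Amotl2, 1.25 for Cyr61, 1.52 for Ctgf and 1.86 for Ankrd1, against a median of 0.48 over all genes.

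**Figure D1:**
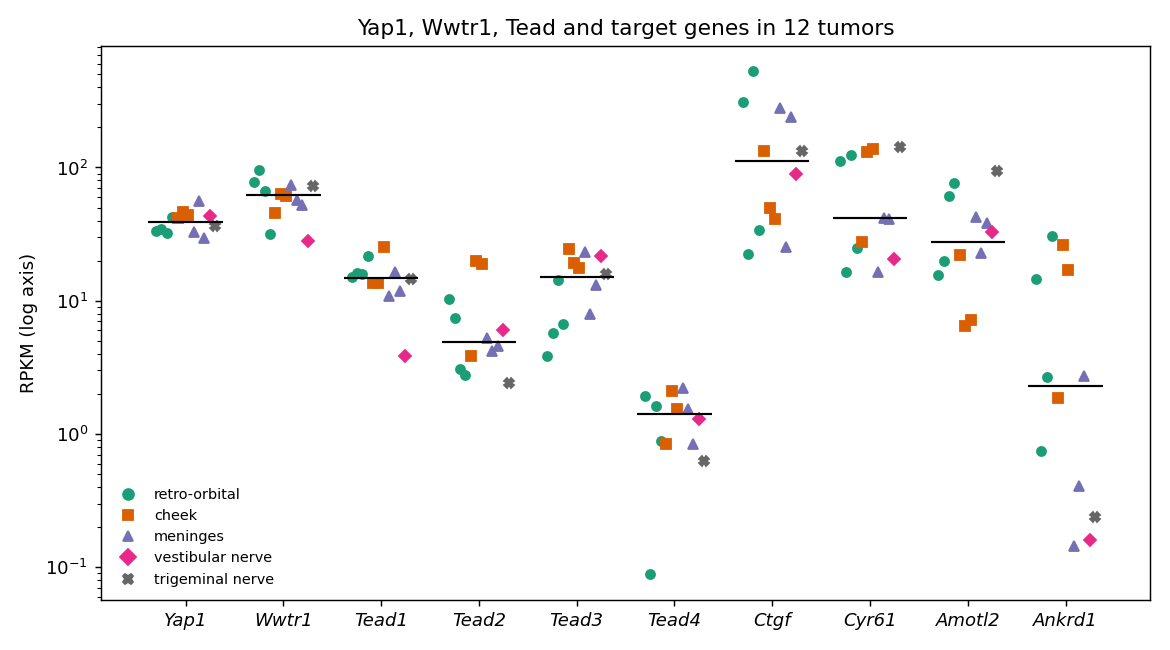
RPKM (log axis) of the 10 genes in each of the 12 tumors, with 1 point a tumor, shapes and colors for location, and black lines for the median. Yap1 stays between 29.3 and 56.2 RPKM, while Ctgf spans 22.6 to 528 RPKM and Ankrd1 0.144 to 30.8 RPKM.

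Yap1, the co-activator that gives the pathway's output its name, was expressed at similar levels in every tumor. It measured 33.3, 34.6, 32.2 and 42.6 RPKM in the retro-orbital tumors and 41.7, 46.7 and 44.0 RPKM in the cheek tumors. The meningeal tumors had 32.9, 56.2 and 29.3 RPKM, the vestibular nerve tumor 43.0 and the trigeminal nerve tumor 36.1 RPKM. The highest and the lowest value both came from the meninges, 1.92-fold apart. Of the retro-orbital tumors, 3 of the 4 lay below all cheek tumors, and the meninges overlapped with both. In each tumor Yap1 stood above at least 90.2% of all genes.

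Wwtr1, which encodes the Yap paralog Taz, was the co-activator with the higher RPKM in 10 of 12 tumors. Its levels were 78.0, 95.9, 66.8 and 31.9 RPKM in the retro-orbital tumors, and 45.3, 63.1 and 61.4 RPKM in the cheek tumors. The meningeal tumors had 74.2, 57.0 and 52.1 RPKM, the vestibular nerve tumor 28.2 and the trigeminal nerve tumor 72.2 RPKM. The exceptions were retro-orbital 4 and vestibular nerve 1, the tumors with the lowest Wwtr1, in which Yap1 was higher. Within tumors, log2(RPKM + 1) of Wwtr1 exceeded that of Yap1 by 0.55 ± 0.66 (SD, n = 12), with an exact two-sided sign-flip permutation p of 0.0171, or 0.0211 after adjustment over the 7 pairs of paralogs compared. With only 1 tumor per shared title, the difference was 0.45 and no longer passed (exact permutation test, adjusted p = 0.114). The ratio of Wwtr1 to Yap1 RPKM ran from 0.656 in vestibular nerve 1 to 2.77 in retro-orbital 2. In meninges 2 the ratio was 1.01, so that both transcripts were at nearly the same level there, and in cheek 1 it was 1.09.

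The 4 Tead transcripts summed to between 29.4 RPKM in retro-orbital 2 and 63.4 RPKM in cheek 3, and their mixture differed from tumor to tumor. Tead1 measured 15.1, 16.3, 15.8 and 21.7 RPKM in the retro-orbital tumors, and 13.6, 13.7 and 25.2 RPKM in the cheek tumors. In the meningeal tumors it was 10.8, 16.3 and 11.9 RPKM, in the trigeminal nerve tumor 14.6 and in the vestibular nerve tumor 3.88 RPKM. The vestibular nerve tumor thus lay below all others, and the remaining 11 overlapped across locations.

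Tead3, by contrast, was among its higher values in that tumor. It measured 3.86, 5.73, 14.4 and 6.73 RPKM in the retro-orbital tumors, and 24.3, 19.1 and 17.8 RPKM in the cheek tumors. The meningeal tumors had 23.3, 7.98 and 13.0 RPKM, the vestibular nerve tumor 21.7 and the trigeminal nerve tumor 16.0 RPKM. All cheek tumors were above all retro-orbital tumors. Tead3 made up 65.8% of the summed Tead RPKM in vestibular nerve 1, where Tead1 made up 11.8%, whereas in retro-orbital 4 Tead1 held 67.6% and Tead3 20.9%. The ratio of Tead3 to Tead1 RPKM ranged from 0.256 in retro-orbital 1 to 5.60 in vestibular nerve 1.

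Tead2 was above 10 RPKM in 3 tumors, at 20.0 and 18.9 RPKM in cheek 2 and cheek 3 and 10.3 RPKM in retro-orbital 1, and between 2.41 and 7.36 RPKM in the others. Cheek 2 and cheek 3 share the first part of their title, and cheek 1 had 3.84 RPKM. Tead4 was the lowest of the 4 in every tumor, at 0.0885 to 2.21 RPKM. Its lowest value, in retro-orbital 2, came from 8 fragments. The remaining Tead4 values ran from 0.630 RPKM upward.

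Of the 6 pairs of Tead genes, 5 differed within tumors by the exact sign-flip permutation test. Tead1, Tead2 and Tead3 each exceeded Tead4 in 12 of 12 tumors, by 2.76, 1.66 and 2.64 on the log2(RPKM + 1) scale (exact permutation test, adjusted p = 0.00114, the raw p of 0.000488 being the smallest 12 tumors allow). Tead1 exceeded Tead2 by 1.10 ± 1.01 (SD, n = 12) in 10 of 12 tumors (exact permutation test, adjusted p = 0.0111). Tead2 was lower than Tead3 in 8 of 12 tumors, with a mean difference of -0.98 ± 1.17 (SD, n = 12; exact permutation test, adjusted p = 0.0211). Tead1 and Tead3 were each the higher in 6 of 12 tumors, and their difference of 0.12 ± 1.17 ran from -2.22 to 1.72, so neither order was detectable (exact permutation test, adjusted p = 0.724). With 1 tumor per shared title, the differences of Tead1 from Tead2 (adjusted p = 0.0547, exact permutation test) and of Tead2 from Tead3 (adjusted p = 0.0984, exact permutation test) no longer passed.

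**Figure D2:**
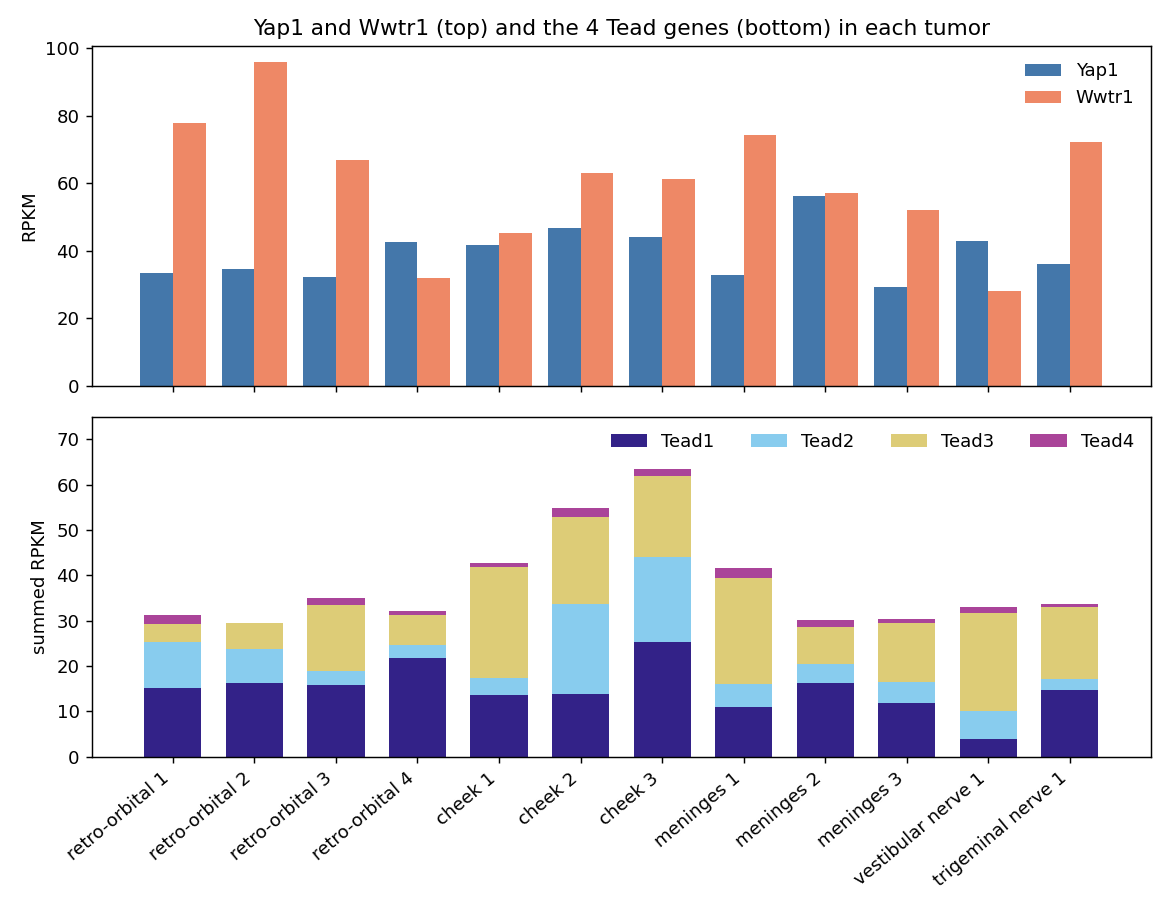
RPKM of Yap1 and Wwtr1 (top, paired bars) and of the 4 Tead genes stacked to their sum (bottom) in each of the 12 tumors. Wwtr1 is the taller bar except in retro-orbital 4 and vestibular nerve 1, and the Tead mixture shifts from 67.6% Tead1 in retro-orbital 4 to 65.8% Tead3 in vestibular nerve 1.

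The targets did not share 1 order of tumors. Ctgf, a secreted matricellular protein, was at 311, 22.6, 528 and 33.9 RPKM in the retro-orbital tumors, and at 133, 49.8 and 41.0 RPKM in the cheek tumors. The meningeal tumors had 279, 25.2 and 238 RPKM, the vestibular nerve tumor 89.6 and the trigeminal nerve tumor 133 RPKM. Retro-orbital tumors alone spanned the whole range, 23.4-fold, so tumors of 1 location differed as much as tumors of different locations.

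Cyr61, a close relative of Ctgf, measured 113, 16.4, 124 and 24.8 RPKM in the retro-orbital tumors, and 27.5, 131 and 138 RPKM in the cheek tumors. It was at 16.6, 42.0 and 41.2 RPKM in the meninges, 20.6 in the vestibular nerve and 143 RPKM in the trigeminal nerve tumor. The values fell into a set of 5 tumors at 113 RPKM and above and a set of 7 at 42.0 RPKM and below, and the retro-orbital and cheek tumors were in both sets. Cheek 2 and cheek 3 were high in Cyr61 and below the median in Ctgf, while meninges 1 was high in Ctgf and second to last in Cyr61.

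Amotl2 encodes a member of the angiomotin family, junctional proteins that bind Yap and restrain it, and is itself a Yap target. It measured 15.5, 19.7, 60.8 and 76.2 RPKM in the retro-orbital tumors, and 22.0, 6.50 and 7.17 RPKM in the cheek tumors. The meningeal tumors had 42.8, 22.7 and 38.3 RPKM, the vestibular nerve tumor 32.7 and the trigeminal nerve tumor 94.3 RPKM. Every meningeal tumor was above every cheek tumor, by a narrow gap between 22.0 and 22.7 RPKM. Cheek 2 and cheek 3, high in Cyr61, were the lowest in Amotl2.

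Ankrd1, an ankyrin repeat protein that striated muscle also expresses, had the widest range, from 0.144 RPKM (7 fragments) in meninges 1 to 30.8 RPKM in retro-orbital 4. It measured 14.5, 0.752, 2.69 and 30.8 RPKM in the retro-orbital tumors, 1.88, 26.1 and 17.0 RPKM in the cheek tumors, and 0.144, 0.409 and 2.71 RPKM in the meningeal tumors. The vestibular and trigeminal nerve tumors had 0.160 and 0.241 RPKM. A gap separated 4 tumors at 14.5 RPKM and above from 8 at 2.71 RPKM and below.

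The level of skeletal muscle genes is set beside Ankrd1 for that reason. The mean log2(RPKM + 1) of 10 muscle genes (Acta1, Ckm, Myh1, Myh2, Myh4, Mylpf, Tnnt3, Tnni2, Actn3 and Ttn) was 3.76 to 5.12 in the 4 tumors with high Ankrd1 and 1.11 to 3.32 in the other 8, and none of the 10 was listed at 0 in any tumor. Over all 12 tumors Pearson's r of Ankrd1 with this mean was 0.73 and Spearman's rho 0.59 (permutation p = 0.00724 and 0.0462, adjusted p = 0.131 and 0.601). Without cheek 2 and meninges 2, the tumors farthest from the median of the list, r was 0.63 (permutation p = 0.0526). Cheek 2 and cheek 3, both among the 4 high tumors, share the first part of their title, and these tests treat them as independent. Over 15 alternatives, 1 tumor per shared title among them, r ranged from 0.65 to 0.81 (permutation test, adjusted p from 0.0601 to 0.405). Because Ankrd1 fell into separate sets, these values mainly reflect the step between them. Within the 8 low tumors, where both had a narrower range, r was -0.27, a description with no test since Ankrd1 itself defines the set. The summed RPKM of the muscle list was 18.3 to 293 in retro-orbital tumors, 75.2 to 642 in cheek tumors and 16.3 to 497 in meningeal tumors, and was 233 and 105 in the vestibular and trigeminal nerve tumors. By these sums the tumors were not separated: meninges 1 (497), meninges 3 (350) and vestibular nerve 1 (233), all low in Ankrd1, exceeded retro-orbital 1 (213), which was high in it. The sums weigh abundant genes most. Tnnt3 (165 RPKM) and Tnni2 (159 RPKM) were highest in meninges 1, and Myh1 (154 RPKM) and Myh2 (143 RPKM) in meninges 3. Acta1, Ckm and Mylpf were highest in cheek 2, a tumor high in Ankrd1. The part of muscle in the Ankrd1 values was not tested.

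All 4 targets were above their own median in retro-orbital 3 alone, and in retro-orbital 2 none was. Of the others, 3 tumors had 3 targets above the median, 4 had 2 and 3 had 1. The trigeminal nerve tumor ranked first for Cyr61 and Amotl2, while its Ankrd1 was at 0.241 RPKM.

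**Figure D3:**
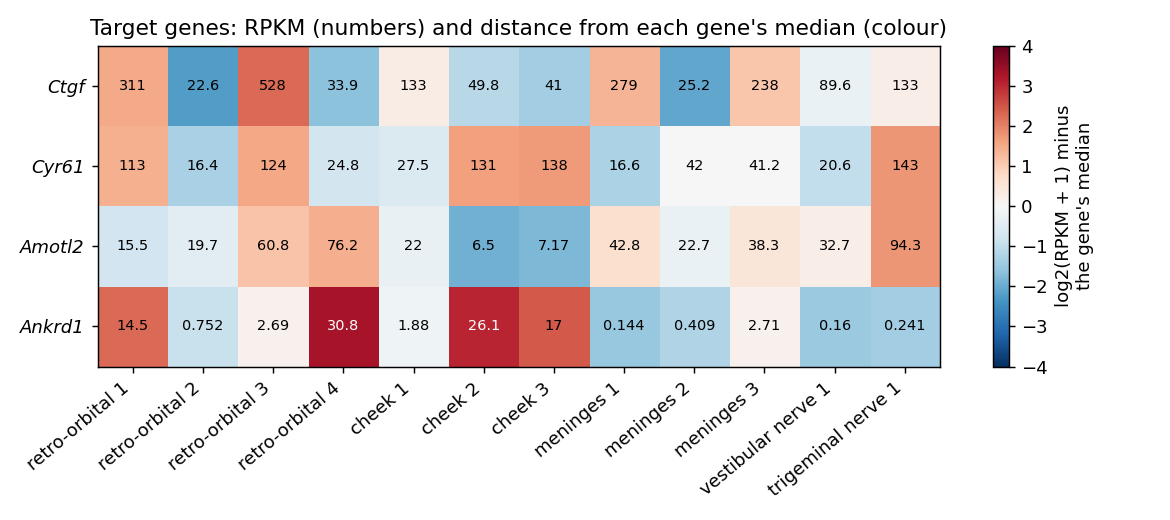
RPKM of the 4 target genes (numbers) in the 12 tumors, colored by the difference of log2(RPKM + 1) from the gene's median. Red and blue change from row to row within most tumors, as in cheek 2, where Cyr61 is at 131 RPKM and Amotl2 at 6.50 RPKM.

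Whether these genes differed between tumor locations was tested in the 10 retro-orbital, cheek and meningeal tumors with limma on log2(RPKM + 1) over 14745 genes. None of the 10 genes passed an adjusted p of 0.05 in the test over the 3 locations, in which 6 genes, 0.0407% of those tested, passed. At an unadjusted p under 0.05 there were 2 of the 10, Tead3 (limma adjusted p = 0.304) and Amotl2 (limma adjusted p = 0.338), against 14.3% of all genes. The count over all genes rested on single tumors, being 198 without cheek 1, 56 without retro-orbital 3 and 0 without cheek 2, cheek 3 or meninges 1, whereas it was 0 for the 10 genes in each case. All but Tead4 and Ankrd1 rested on at least 110 fragments in every tumor. In simulated data of this size, limma called 4 of 100 genes shifted by 1 on the log2 scale in cheek tumors and 53 of 100 shifted by 2. The genes were drawn from all those expressed, and 4 genes that were not shifted were also called. The noise was each gene's own SD over the 10 tumors, which includes differences between locations, and shared titles were not simulated. Differences of these sizes could thus have been missed in many genes, but the rates are averages and were not worked out for the 10 genes.

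Between cheek and retro-orbital, Tead3 and Amotl2 had an unadjusted p under 0.05, as had 12% of all genes. Tead3 was higher in cheek by 1.42 (SE 0.42, limma adjusted p = 0.280) and Amotl2 differed by -1.67 (SE 0.61, adjusted p = 0.332). The share of all genes called in this comparison was 0.0271%. The 2 groups did not overlap in RPKM for 1 of the 10 genes, Tead3, and for 11.1% of all genes. Between meninges and retro-orbital, where 0.0203% of genes were called, none of the 10 genes had an unadjusted p under 0.05, against 9.14% of all genes. Ankrd1 differed there by -2.05 (SE 1.08, limma adjusted p = 0.577), or -1.36 without retro-orbital 4, and Tead3 by 0.88 (SE 0.42, limma adjusted p = 0.562), or 0.51 without meninges 1. None of the 10 genes was without overlap there, against 9.23% of all genes. Between meninges and cheek, 0.0475% of genes were called and 17% had an unadjusted p under 0.05, Ankrd1 and Amotl2 among them. Ankrd1 differed by -2.63 (SE 1.15, limma adjusted p = 0.289) and Amotl2 by 1.62 (SE 0.65, adjusted p = 0.261). Amotl2 was the only one of the 10 without overlap, against 28.7% of all genes. When tumors with a shared title were given a common correlation in limma, Amotl2, Wwtr1 and Tead4 passed in this comparison (adjusted p = 0.0230, 0.0231 and 0.0434). In all, 4243 of the 14745 genes tested passed there, so these calls do not set the 10 genes apart.

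Differences of Yap1 and Wwtr1 between locations were not detectable. For Yap1 the differences were between -0.21 and 0.31 with SEs of 0.22 to 0.24, and for Wwtr1 between -0.17 and 0.11 with SEs of 0.34 to 0.36 (limma, adjusted p from 0.598 to 0.962). Leaving out 1 tumor, the differences ran from -0.49 (meninges against cheek without meninges 2) to 0.39 (cheek against retro-orbital without retro-orbital 4) for Yap1 and from -0.50 (cheek against retro-orbital without retro-orbital 4) to 0.21 (meninges against cheek without meninges 3) for Wwtr1. Ctgf differed by 0.87 between meninges and cheek (SE 1.30), or 1.97 without meninges 2, and by -0.71 between cheek and retro-orbital (SE 1.22), or -1.45 without retro-orbital 2 and 0.05 without retro-orbital 3. The median difference of the 10 genes was 0.30 for cheek against retro-orbital, -0.06 for meninges against retro-orbital and -0.29 for meninges against cheek. Over all genes tested it was -0.02, 0.13 and 0.16.

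Genes commonly used as markers of other cell types are given beside these differences. The tumor cells may express some of the fibroblast genes themselves. The paper describes a mesenchymal pattern in these RTs and staining of tumor cells for SMA, the product of Acta2. The summed RPKM of 10 leukocyte genes was 783 to 888 in cheek tumors, 1071 to 2646 in retro-orbital and 1192 to 1869 in meningeal tumors. That of 10 brain glia genes was 17.6 to 28.5 in cheek, 15.9 to 293 in retro-orbital and 151 to 447 in meningeal tumors. The endothelial list summed to 64.9 to 77.5 in cheek, 28.6 to 137 in retro-orbital and 92.3 to 123 in meningeal tumors, and the fibroblast list to 3152 to 5324, 926 to 3901 and 1210 to 2749. The fibroblast sums are carried by abundant genes such as Col1a2, Col3a1 and Postn, and the median difference over the 10 fibroblast genes was -0.75 on the log2 scale for cheek against retro-orbital, the other direction from the sums. Their part in the differences of Tead3, Amotl2 and Ankrd1 was not tested.

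**Figure D4:**
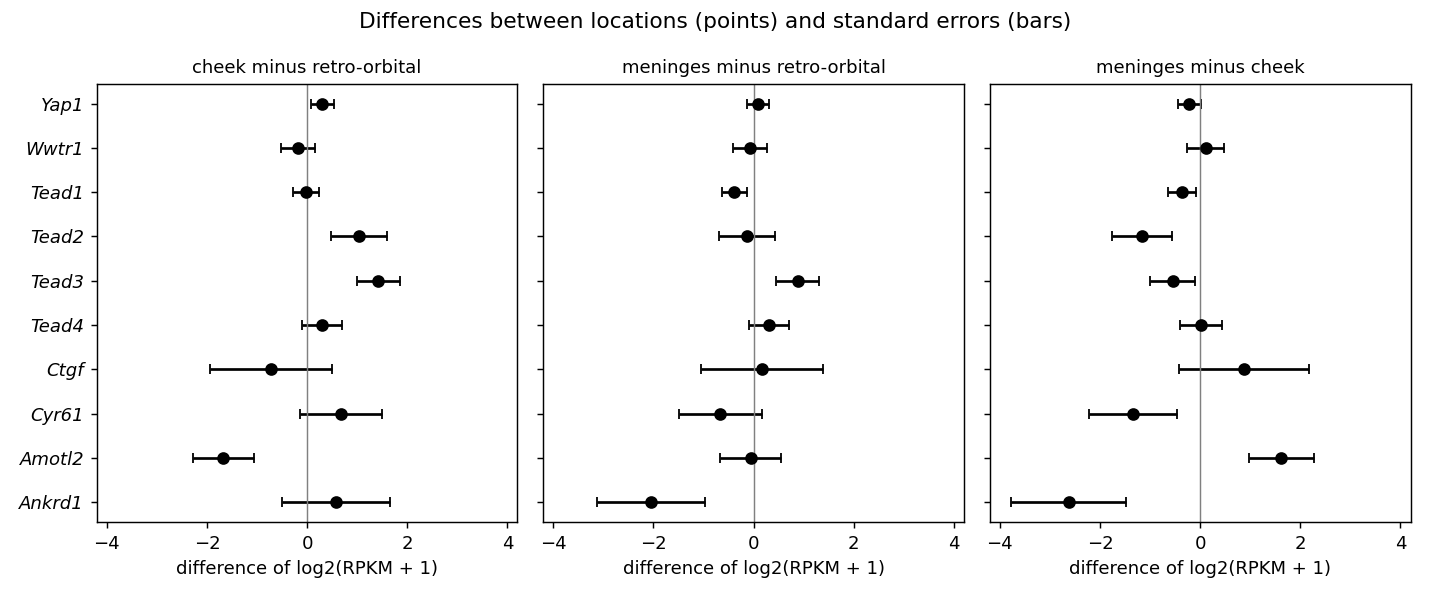
Differences of mean log2(RPKM + 1) between locations (points) with limma standard errors (bars) for the 10 genes. Tead3 (1.42) and Amotl2 (-1.67) lie farthest from 0 in cheek minus retro-orbital and Ankrd1 (-2.63) in meninges minus cheek, and none passed after adjustment over all genes.

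Across the 12 tumors, the levels of the co-activators were compared with those of the targets, the targets with each other, and the targets with lists of muscle, endothelial and fibroblast genes. None of the 26 relations passed after adjustment. The largest coefficient of a co-activator was the inverse one of Yap1 with Ctgf, with a Pearson r of -0.71 (permutation p = 0.0100, adjusted p = 0.131) and a Spearman rho of -0.70 (permutation p = 0.0141, adjusted p = 0.367). Without meninges 2 and meninges 3, the tumors farthest from the Yap1 median, r was -0.63 (permutation p = 0.0543). A single tumor moved the value most, since retro-orbital 2 combined low Yap1 (34.6 RPKM) with the lowest Ctgf (22.6 RPKM), and without it r was -0.90 (permutation test, adjusted p = 0.00936). Each tumor was left out in turn, and the adjustment over the 26 relations does not cover the choice among these omissions. No location held enough tumors for a value of its own.

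The coefficient of Wwtr1 with Ctgf was r = 0.15 (rho = 0.18, permutation p = 0.650 and 0.574, adjusted p = 0.805 and 0.903), and -0.09 without retro-orbital 4 and vestibular nerve 1. For Amotl2, r was -0.39 with Yap1 (rho = -0.41, permutation p = 0.214 and 0.183, adjusted p = 0.675 and 0.768), and -0.22 with Wwtr1 (rho = -0.16, permutation p = 0.485 and 0.620, adjusted p = 0.803 and 0.903). Leaving out the farthest tumors, these were -0.44 and 0.08. Ctgf and Amotl2 gave r = 0.35 (rho = 0.25, permutation p = 0.258 and 0.429, adjusted p = 0.675 and 0.903), and 0.22 without retro-orbital 2 and retro-orbital 3. No coefficients are given for Cyr61, and none for Ankrd1 beyond that with the muscle list, because the values of both fell into separate sets.

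Ctgf is also made by fibroblasts, and its relation to 10 fibroblast and pericyte genes was r = 0.50 (rho = 0.52, permutation p = 0.101 and 0.0886, adjusted p = 0.646 and 0.644). Without meninges 1 and vestibular nerve 1, the tumors with the lowest fibroblast means, it was 0.83 (permutation p = 0.00516, not adjusted). Meninges 1, left out there, combined a low fibroblast mean with a high Ctgf of 279 RPKM. Over 15 other alternatives r ranged from 0.36 to 0.71 (permutation test, adjusted p from 0.173 to 0.847). With the endothelial list r was 0.35 (rho = 0.35, permutation p = 0.259 and 0.264, adjusted p = 0.675 and 0.768), and 0.48 without retro-orbital 2 and meninges 2. Whether the fibroblast genes were expressed by stroma or by the tumor cells was not tested, nor was the part of stroma in the Ctgf values.

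**Figure D5:**
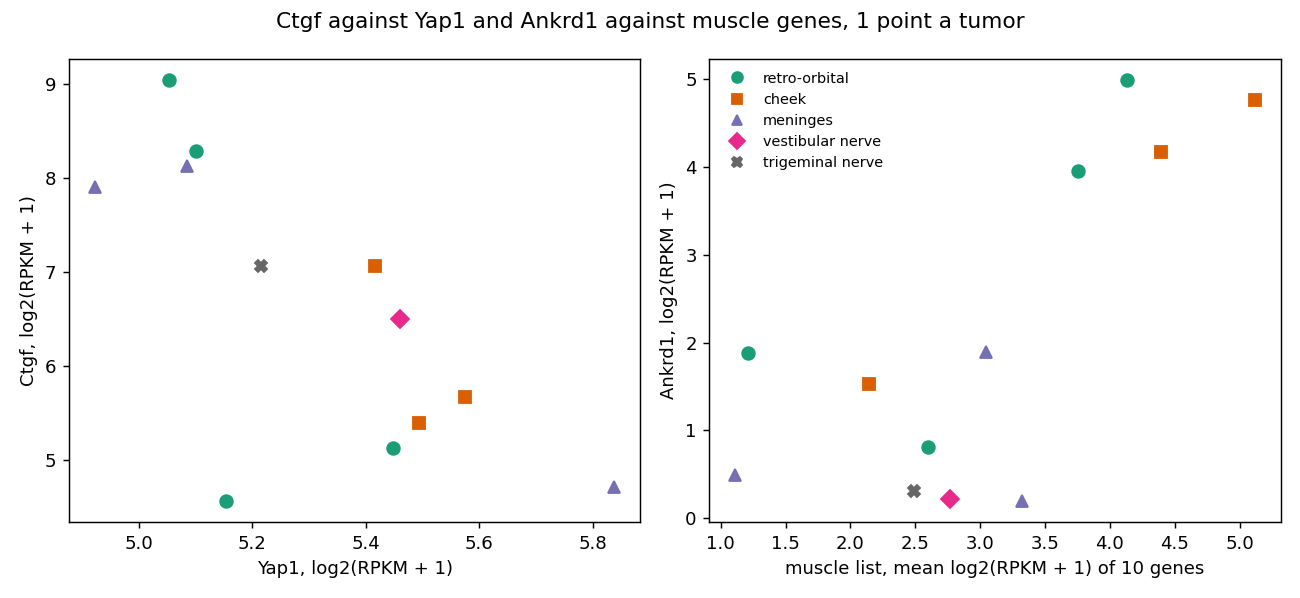
Ctgf against Yap1 (left) and Ankrd1 against the mean of 10 muscle genes (right), all as log2(RPKM + 1), with 1 point a tumor. The Pearson r of the left panel is -0.71, with retro-orbital 2 alone at the lower left, and the 4 tumors with high Ankrd1 are those with a muscle mean of 3.76 or more.

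Upstream regulators of the pathway were examined as a list beside the members. Of 26 regulators, 25 were expressed highly enough to be tested, and none passed the limma test over locations, with 4 at an unadjusted p under 0.05, against 0.0407% and 14.3% of all genes tested. The kinases Stk3 and Stk4 ranged from 15.8 to 33.1 and from 11.1 to 24.3 RPKM. Lats1 ranged from 12.7 to 25.6 RPKM and Lats2 from 11.7 to 32.3 RPKM, so transcripts of all these kinases were detected in every bulk tumor sample. Lats2, itself a Yap target, had the smallest unadjusted p of the list (limma adjusted p = 0.210), with a difference of -0.90 in cheek against retro-orbital (SE 0.21). Nf2 was expressed in all tumors, at 16.2 RPKM in retro-orbital 1 to 53.4 RPKM in meninges 1. Vgll4, a repressor that competes with Yap for Tead, ranged from 14.4 to 32.3 RPKM, and Ptpn14, a phosphatase that binds Yap, from 9.18 to 34.4 RPKM.

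Of 20 further Yap and Taz target genes, none passed over locations by limma, and 9 had an unadjusted p under 0.05, against 0.0407% and 14.3% of all genes tested. The list's median difference was -0.32 for cheek against retro-orbital, -0.11 for meninges against retro-orbital and 0.55 for meninges against cheek. The 4 with the largest SD over the tumors were F3 (1.53), which encodes tissue factor, the transcription factor Foxf2 (1.49), the membrane repair protein Myof (1.46) and Crim1 (1.25). Foxf2 differed by 2.65 between meninges and cheek (SE 0.79, limma adjusted p = 0.179), where Myof differed by -2.26 (SE 0.64, adjusted p = 0.167). These 4, picked for their spread, did not share 1 order of tumors: retro-orbital 2 had the highest Myof, 141 RPKM, and the lowest Crim1, 3.03 RPKM. F3 was lowest in retro-orbital 1 at 8.80 RPKM and highest in retro-orbital 3 at 163 RPKM. Of the 9 above, Gadd45a (-1.93), Tgfbr2 (-1.53), Axl (-1.51), Ccdc80 (-1.42), Nuak2 (-1.34) and Foxf2 (-0.17) were lower in cheek than in retro-orbital tumors. Birc5 (0.62), Myof (0.10) and Arhgef17 (0.06) were higher. The smallest limma adjusted p of these differences was 0.126, for Tgfbr2.

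The genes whose levels followed Yap1, Wwtr1 and Ctgf most closely over the 12 tumors were looked up among 15040 expressed genes, as a description in which the highest of many coefficients is always large. For Yap1 they were Sacm1l (r = 0.88), a phosphoinositide phosphatase, Rps6kb1 (0.85), the S6 kinase gene, Upf3a (0.84), Pole2 (0.82), a DNA polymerase subunit, and the cell cycle kinase Cdk1 (0.82). For Wwtr1 they were Slc22a15 (r = 0.84), Gatsl3 (0.81), Pon2 (0.81), a paraoxonase, Ankrd50 (0.80) and Layn (0.79), a hyaluronan receptor. For Ctgf they were Pcyt1b (r = 0.90), Ctxn1 (0.90), Tm4sf1 (0.89), Pdgfd (0.89), a growth factor, and Tmc7 (0.89). None of the 10 genes of the pathway described here was among them.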

How the data were processed

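RNA of 12 RTs was isolated with the RiboPure kit, and libraries were made with the TruSeq Stranded kit after ribosomal RNA removal. Per the labels and the study's methods, the authors used bcl2fastq 2.17, aligned reads to mm10 with STAR and counted uniquely mapped reads on RefSeq genes with HTSeq. They deposited 1 table a tumor with an RPKM value for each gene. The length used for each gene is not given in the sources used here. Of 24060 rows, 27 hold a date in place of a symbol; they were kept in fits and never named. The members and gene lists were chosen with earlier results of these data known.

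Groups are the locations in the labels. The molecular subgroups of the tumors are not in the labels and were not compared. RPKM was analysed as log2(RPKM + 1), which understates changes of low genes, in genes that reached 1 RPKM in 3 or more tumors. Locations were compared with limma 3.58.1 in R 4.3.3 (trended, robust prior; Benjamini-Hochberg over all genes, threshold 0.05). Paralogs were compared within tumors by exact sign-flip permutation tests, two-sided, adjusted over 7 pairs. Relations used permutation tests with 100000 resamples, two-sided, adjusted over 26 relations. Python 3.11.15, numpy 2.4.6, pandas 2.3.3, scipy 1.17.1 and matplotlib 3.10.9 were used. Fragment totals were found from the value of 1 fragment that many genes with a single annotated length shared. Each member had a length at which all its values were whole numbers of fragments (tolerance 0.005). The limma fit, the fragment totals, the correlations and the sign-flip test were tried on simulated data. The search of the windows, the gene lengths and the Dixon gaps were not.

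Beside the 10 genes, the text names, by rule, Smarcb1, the regulators Nf2, Lats1, Lats2, Stk3, Stk4, Vgll4 and Ptpn14, list genes past the threshold, the 4 other target genes with the largest SD, and the 5 genes most like Yap1, Wwtr1 and Ctgf. The other target genes with an unadjusted p under 0.05 over locations (limma) were named after seeing the values. Alternatives were a pseudocount of 0.1, no filter, quantile normalization, TPM scaling, a plain prior, a shared correlation of tumors with a common title, 1 tumor per shared title and leaving out each tumor. Symbols and windows are from RefSeq (GRCm38.p6), under which Ctgf and Cyr61 are named Ccn2 and Ccn1.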

Additional observations from a re-analysis of the deposited data

How the results depend on the processing

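No paired analysis was possible because the labels give no replicate numbers and only 1 shared title (cheek 1 and meninges 1) spans 2 of the locations compared. Shared titles entered instead as a correlation between tumors. The count of the 10 genes called over locations was 0 under all alternatives, and their adjusted p stayed between 0.0538 and 0.999. Counts over all genes depended on the setting, and the cause was not tested. The test over locations (main count 6) called 10 genes with no filter, 2802 with the shared title as a limma duplicateCorrelation block (consensus correlation 0.93), 19 with the plain prior and 0 with 1 tumor per shared title, an alternative added after seeing the data. Cheek against retro-orbital (4) gave 2 with no filter and 2 with the block, meninges against retro-orbital (3) gave 7 with no filter and 6 with the plain prior, and meninges against cheek (7) gave 2 with pseudocount 0.1, 18 with no filter, 13 with quantile normalization, 4243 with the block and 22 with the plain prior. With 1 tumor per shared title, each of these 3 comparisons called 0. Leaving out 1 tumor gave 0 to 198 genes over locations, 0 to 147 for cheek against retro-orbital, 0 to 41 for meninges against retro-orbital and 0 to 527 for meninges against cheek, the highest without cheek 1 except for the third, which was highest without retro-orbital 3, and all were 0 without cheek 2 or cheek 3. Within the block, 3 of the 10 genes passed in meninges against cheek: Wwtr1 (difference 0.62, limma adjusted p = 0.0231), Tead4 (0.69, adjusted p = 0.0434) and Amotl2 (adjusted p = 0.0230). These stand beside 4243 of the 14745 genes tested. The correlation of the block rests only on cheek 1 with meninges 1 and cheek 2 with cheek 3. Of the 7 pairs of paralogs, 6 passed without any 1 tumor (6 to 6) and with pseudocount 0.1, and 3 with 1 tumor per shared title. Relations called numbered 0 to 1 without 1 tumor, the 1 being Yap1 and Ctgf without retro-orbital 2. The Pearson r of Yap1 and Ctgf ranged from -0.90 to -0.65 over 15 alternatives. Depth limits Tead4 and Ankrd1, whose lowest values rest on 8 and 7 fragments.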

Other observations

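In the retro-orbital group, the only one of 4 to 10 tumors, the gap of the most distant tumor divided by the group range was below the Dixon critical value for each of the 10 genes. The largest was 0.792 for Tead1, where retro-orbital 4 was the highest of the group, and the same tumor gave 0.746 for Yap1.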
